A study of Mus musculus with 44 samples.

Results

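The comparison described here set the liver RNA of mice lacking Mlkl (MlklKO) against that of mice lacking Ripk3 (Ripk3KO), both on the control diet. It used 12 libraries of 44 in the series, 6 from each knockout, each labelled as a separate liver sample. The mice entered the study at 2 months of age and were fed normal chow, the control diet, for 6 months. Their genotypes are labelled MLKL KO (Mlkl-/-) and Ripk3KO (Ripk3-/-), and nothing in the labels ties either deletion to a Cre driver or to one cell type. The labels name no strain, sex, litter or batch, so a p-value here measures only a spread between samples. That spread was estimated within the groups of all 44 libraries, also those not compared here. The series also holds wild-type (WT) mice on the same chow and mice of these genotypes on choline-deficient low-fat (CD-LFD) and high-fat (CD-HFD) diets, which appear below only beside the comparison of both knockouts.

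Necroptosis is a lytic form of programmed cell death. The kinase RIPK3, activated downstream of death receptors such as the TNF receptor, phosphorylates the pseudokinase MLKL, which then oligomerises and breaks the plasma membrane. Loss of either gene blocks this pathway, but RIPK3 also has roles apart from MLKL, in inflammatory signalling and apoptosis, so a direct comparison of the knockouts asks where the livers of both models differ although both lack necroptosis. Hepatocytes make up most liver RNA and are known for low levels of Ripk3.

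Ripk3 itself was scarce in all 12 livers. Levels here are CPM, counts scaled by library size and by TMM, the trimmed mean scaling of edgeR, in which 3 counts amount to 0.377 CPM in the deepest of the 12 libraries and 0.722 CPM in the shallowest. Ripk3 ran from 0.729 to 1.76 CPM (median 1.16) in the MlklKO livers, from 0 to 1.26 CPM (median 0.158) in the Ripk3KO livers and from 0.511 to 4.89 CPM (median 1.26) in WT. Within Ripk3KO, replicates 1, 2 and 6 had 0 counts, replicates 3 and 4 had 2 counts each, and the library labelled Ripk3KO 5 had 9 counts, or 1.26 CPM. That library therefore sat inside the MlklKO range and goes against its label. Over all 6 against 6 the log2 difference was 1.60 (SE 0.589), with adjusted p = 0.0877 (quasi-likelihood test of edgeR, p-values adjusted by the Benjamini-Hochberg method). No test of Ripk3 without that library is given, since its Ripk3 level is what sets it apart. All adjusted p-values below come from the same test, with a gene called at adjusted p under 0.05, and all log2 differences are MlklKO minus Ripk3KO.

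Mlkl transcripts were lower but not absent in the Mlkl knockouts. Mlkl ran from 1.46 to 3.04 CPM (median 2.1) in MlklKO, from 2.53 to 8.1 CPM (median 3.71) in Ripk3KO and from 2.28 to 6.15 CPM (median 5.38) in WT. The highest value was that of the library labelled Ripk3KO 5, and the knockouts overlapped between 2.53 and 3.04 CPM. The difference was called (log2 difference -0.95, SE 0.276, adjusted p = 0.0274) but was lost without the library labelled Ripk3KO 5 (adjusted p = 0.147). Where the deleted part of either gene lies was not given in the sources used here, so reads from a remaining transcript cannot be told apart from reads of an intact one.

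**Figure D1:**
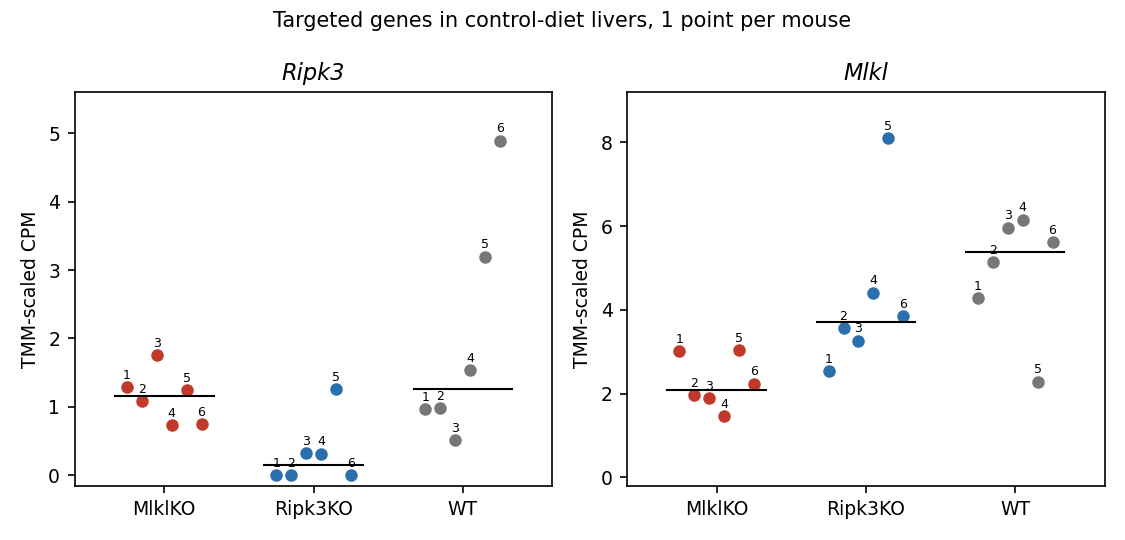
Ripk3 (left) and Mlkl (right) in TMM-scaled CPM on the vertical axis, 1 point per control-diet mouse labelled with its replicate number, with group medians as lines. The library labelled Ripk3KO 5 has 1.26 CPM of Ripk3 and, at 8.1 CPM, the highest Mlkl of all 3 groups.

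Total counts ran from 4957345 to 9291737 in the 12 libraries, and 16854 to 18989 genes had at least 1 count. Mitochondrially encoded transcripts made up 2.77 to 4.75% of counts in MlklKO and 3.07 to 4.24% in Ripk3KO 3 to 6, and 7.03% and 5.61% in Ripk3KO 1 and 2, the highest of the 12. Predicted and RIKEN clone genes, with Gm and Rik symbols, took 0.951% and 0.95% of counts in these same livers, 0.756 to 0.786% in the other Ripk3KO livers and 0.778 to 0.866% in MlklKO. Every library had the Y-linked Ddx3y (46.4 to 101 CPM before TMM scaling), while Xist stayed at 0 to 1.69 CPM. On the first principal component of the 12 libraries, which held 31.1% of the variance, Ripk3KO 1 and 2 lay at -72.4 and -67.8 and the other Ripk3KO libraries between -3.80 and 13.6. MlklKO 1 to 5 lay between 17.6 and 52.99, and MlklKO 6 at -16.5. The pair that lay apart on this component is thus the pair with the highest shares of both, and the part of RNA quality in the differences that rest on them was not tested. The summed level of 12 hepatocyte markers, among them Alb, Apoa1 and Ttr, was 144277 to 167669 CPM in the MlklKO livers and 157959 to 182056 CPM in the Ripk3KO livers.

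The livers of both knockouts differed in 1045 of 14862 genes tested, 7.03% of them, of which 569 were higher in MlklKO (3.83%) and 476 lower (3.2%). With libraries scaled by their size alone, 844 were higher and 346 lower. The 6 and 6 values did not overlap for 200 genes (1.35%), and 129 genes were both called and without overlap (0.868%). The number of calls depended on single livers and on which libraries entered the fit. It was 521 without Ripk3KO 1, 481 without Ripk3KO 2, and 543, 689 and 679 without MlklKO 1, 2 and 3. It was 199 (1.34%) without Ripk3KO 1 and 2 together, 0.834% of genes higher and 0.505% lower, and 186 of the 199 belonged to the 1045. It was 1802 without MlklKO 6, of which 1022 did. Without the library labelled Ripk3KO 5 there were 966, and 857 of the 1045 were among them. Fitting only these 12 libraries gave 164 calls. Across these fits, DESeq2, a clock covariate described below and the 12 fits that each left out 1 library, 98 genes were called in the same direction throughout, 65 higher and 33 lower in MlklKO.

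**Figure D2:**
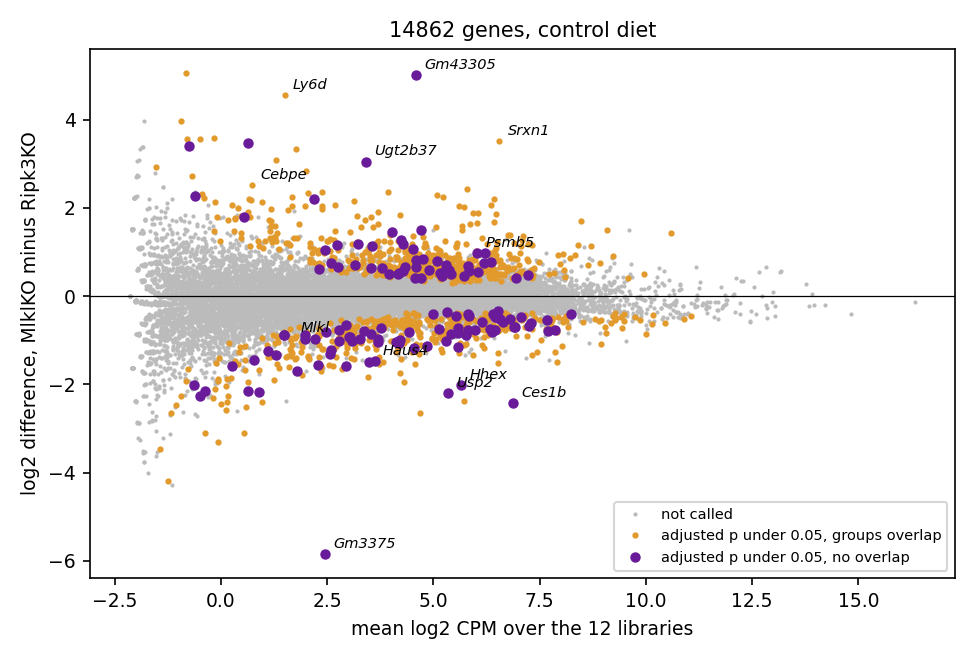
Log2 difference (MlklKO minus Ripk3KO, vertical) against the mean log2 CPM of the 12 libraries (horizontal) for 14862 genes. Purple points mark the 129 called genes whose 6 and 6 values do not overlap and orange points the other called genes. Gm3375 at -5.84 and Gm43305 at 5.01 are the most extreme of the purple points.

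Among called genes without overlap between the livers, and leaving aside predicted genes and those with a mean log2 CPM under 1, the largest rise was that of Ugt2b37, a UDP-glucuronosyltransferase that conjugates steroids and drugs. It ran from 12.7 to 57.2 CPM (median 42.4) in MlklKO and from 0.194 to 9.63 CPM (median 4.24) in Ripk3KO. All MlklKO livers were above all Ripk3KO livers, 8.26-fold on the fitted means (log2 difference 3.05, SE 0.425, adjusted p = 2.15e-05), and WT livers were at 0.615 to 2.74 CPM (median 1.3). Genes of the actin cytoskeleton followed. The formin Fmnl2, which elongates actin filaments, ran from 17.2 to 49.3 CPM (median 23.9) against 5.83 to 15.3 CPM (median 9.39), a log2 difference of 1.44 (SE 0.257, adjusted p = 4.71e-04). Peak1, a pseudokinase of the cytoskeleton and focal adhesions, ran from 17.9 to 57.3 CPM (median 23.5) against 9.61 to 16.6 CPM (median 11.9), a log2 difference of 1.26 (SE 0.194, adjusted p = 8.49e-05). For both, the lowest MlklKO liver still exceeded the highest Ripk3KO liver.

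Further rises without overlap were between 0.98 and 1.19 on the log2 scale. They were Nhsl1, a regulator of actin at the cell edge, Gas7, Armcx3, the Ral GTPase-activating subunit Ralgapa1, Tmem39a, the farnesyltransferase subunit Fntb, the proteasome subunit Psmb5 and the adhesion molecule Alcam, with adjusted p from 8.76e-05 to 0.00764. Alcam was 64.7 to 147 CPM (median 99.8) in MlklKO, 45.5 to 64.7 CPM (median 51.9) in Ripk3KO and 37 to 64.7 CPM (median 51.7) in WT. MlklKO 6 was level with the highest liver of both other groups, and the other MlklKO livers were above them.

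Falls without overlap were led by Ces1b, a carboxylesterase of the liver that hydrolyses esters and lipids. Ces1b ran from 43.2 to 77 CPM (median 57.3) in MlklKO and from 86.1 to 708 CPM (median 237) in Ripk3KO, 5.36-fold higher in the latter (log2 difference -2.42, SE 0.36, adjusted p = 5.06e-05). Its highest values were in Ripk3KO 2 and 1, at 708 and 455 CPM, and without these livers the difference was -1.57 with adjusted p = 0.00647. WT livers were at 76.6 to 469 CPM (median 107). Hhex, a homeobox factor needed to form the liver, ran from 13.1 to 38.8 CPM (median 31.7) in MlklKO, from 60.6 to 249.9 CPM (median 86.4) in Ripk3KO and from 92.6 to 151 CPM (median 126) in WT (log2 difference -2.01, SE 0.304, adjusted p = 6.35e-05). Here MlklKO was below both other groups, and the library labelled Ripk3KO 5 was the highest Ripk3KO liver.

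A pair of receptors for extracellular purines was lower in MlklKO. Adora1, the adenosine A1 receptor, ran from 3.27 to 13.3 CPM (median 5.82) in MlklKO and from 15.1 to 27.2 CPM (median 18.6) in Ripk3KO (log2 difference -1.50, SE 0.206, adjusted p = 1.75e-05). P2ry1, which senses ADP, ran from 1.29 to 5.07 CPM (median 2.62) and from 5.87 to 16.5 CPM (median 7.05), a log2 difference of -1.56 (SE 0.293, adjusted p = 9.45e-04). Both receptors were low in absolute terms, and MlklKO livers lay below all Ripk3KO livers for each.

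Fzd4, a Wnt receptor, fell with -1.19 (adjusted p = 0.00244), the extracellular sulfatase Sulf2 with -1.22 (adjusted p = 0.00204), the LIM protein Csrp2 with -1.12 (adjusted p = 8.29e-05), the ciliary gene Ccdc151 with -1.32 (adjusted p = 0.00374), and the endosomal factor Rabep2 with -1.05 (adjusted p = 0.00747). Without Ripk3KO 1 and 2, Fzd4, Csrp2 and Ccdc151 stayed called, while Sulf2 had adjusted p = 0.102 and Rabep2 0.391. Usp2 and Haus4, which belong to the same falls, are taken up below.

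The strongest call for a gene outside the knocked-out regions and with a known product was Srxn1, sulfiredoxin, which restores oxidised peroxiredoxins and is a target of the antioxidant factor NRF2. Srxn1 was at 262 to 619 CPM in MlklKO 1 to 5 and at 29.5 CPM in MlklKO 6, against 23.3 to 38.9 CPM (median 32.7) in Ripk3KO and 27.9 to 49 CPM (median 40.5) in WT. Thus 5 MlklKO livers stood far above every other liver and the remaining one lay inside the Ripk3KO range. The fitted difference was 11.4-fold (log2 difference 3.51, SE 0.327, adjusted p = 9.66e-10), and 3.76 without MlklKO 6. The bases before its transcription start are printed because they hold a match to a motif of the antioxidant response element type, searched on both strands as TGANTCAGC (capitals).

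Srxn1 promoter, chr2:152105274-152105523, plus strand: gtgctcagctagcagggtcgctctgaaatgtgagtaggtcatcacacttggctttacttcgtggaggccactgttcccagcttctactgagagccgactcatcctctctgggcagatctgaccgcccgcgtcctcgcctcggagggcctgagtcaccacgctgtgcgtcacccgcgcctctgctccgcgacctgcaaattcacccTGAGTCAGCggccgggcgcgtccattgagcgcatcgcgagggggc

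The sequence is that of RefSeq, in build GRCm38.p6, and covers the 250 bases before the start. The match begins 45 bases before the start, and 1.02% of 32851 starts hold this motif in a window of that length. The pattern was set with this sequence in view. Osgin1, another NRF2 target, also holds 1 match, and its level went the other way, from 73.6 to 338 CPM (median 106) in MlklKO against 243 to 406 CPM (median 259.7) in Ripk3KO, 2.01-fold higher in the latter (adjusted p = 0.0144). The windows of the NRF2 targets Gclm and G6pdx, also searched, hold 0 matches. A match is a description of letters only.

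The NRF2 list as a whole did not share the rise of Srxn1. Of its 28 genes tested, 3 were called higher and 4 lower (25% of the list, against 7.03% of all genes), with a median log2 difference of -0.10 against -0.01 over all genes tested. Of glutamate-cysteine ligase, which makes the precursor of glutathione, the catalytic subunit Gclc was higher (1.15, adjusted p = 0.00534) and the modifier subunit Gclm lower (-0.55, adjusted p = 0.00364). G6pdx, which supplies NADPH, was higher with 0.71 (adjusted p = 0.0345). The glutathione transferase Gsta2 was lower with -1.21 (adjusted p = 0.0181) and the epoxide hydrolase Ephx1 with -0.59 (adjusted p = 0.0434). Srxn1, Gclc and Gclm kept their calls without Ripk3KO 1 and 2, and the other 4 genes, Osgin1 among them, lost theirs.

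Other genes had the same order of livers as Srxn1, high in MlklKO 1 to 5 and low in MlklKO 6. They were chosen after their values were seen. Ly6d, a cell-surface protein known from B cell and squamous lineages, was at 10.1 to 37.5 CPM in MlklKO 1 to 5, at 0.298 CPM in MlklKO 6 and at 0.158 to 1.93 CPM (median 0.559) in Ripk3KO (log2 difference 4.56, SE 0.646, adjusted p = 2.61e-05). The keratins of simple epithelia, which hepatocytes express as a pair, moved together. Krt8 was at 629 to 1465 CPM in MlklKO 1 to 5 and 238 CPM in MlklKO 6, against 313 to 439 CPM (median 339) in Ripk3KO (log2 difference 1.51, SE 0.241, adjusted p = 1.29e-04). Krt18 ran from 154 to 1058 CPM (median 757) against 195 to 258 CPM (median 208), a log2 difference of 1.69 (SE 0.266, adjusted p = 9.48e-05). For both keratins MlklKO 6 was below all Ripk3KO livers. Bile duct cells express these keratins too, and the summed level of 11 cholangiocyte markers had a median of 112 CPM in MlklKO and 68 CPM in Ripk3KO, with all 11 above 0 in log2 difference. Their part in the keratin differences was not tested.

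The tubulins Tubb6 (2.29, adjusted p = 2.80e-05) and Tubb2a (2.07, adjusted p = 1.84e-04), the TWEAK receptor Tnfrsf12a (2.24, adjusted p = 4.22e-04), the adhesion protein Tes (2.05, adjusted p = 8.76e-05), annexin Anxa2 (1.23, adjusted p = 0.0051), Plet1 (2.34, adjusted p = 3.09e-04) and the basement membrane collagen Col4a1 (1.63, adjusted p = 8.78e-05) were also higher in MlklKO. Tubb6 ran from 9.25 to 183 CPM (median 89.7) in MlklKO and from 11.1 to 28.8 CPM (median 15.2) in Ripk3KO. Mrap, an accessory protein of the melanocortin receptor for ACTH, was at 105 to 307 CPM in MlklKO 1 to 5, 35.8 CPM in MlklKO 6 and 38.9 to 49.9 CPM (median 45) in Ripk3KO (log2 difference 2.21, SE 0.272, adjusted p = 1.41e-06). All of these kept their calls without MlklKO 6 and without Ripk3KO 1 and 2.

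**Figure D3:**
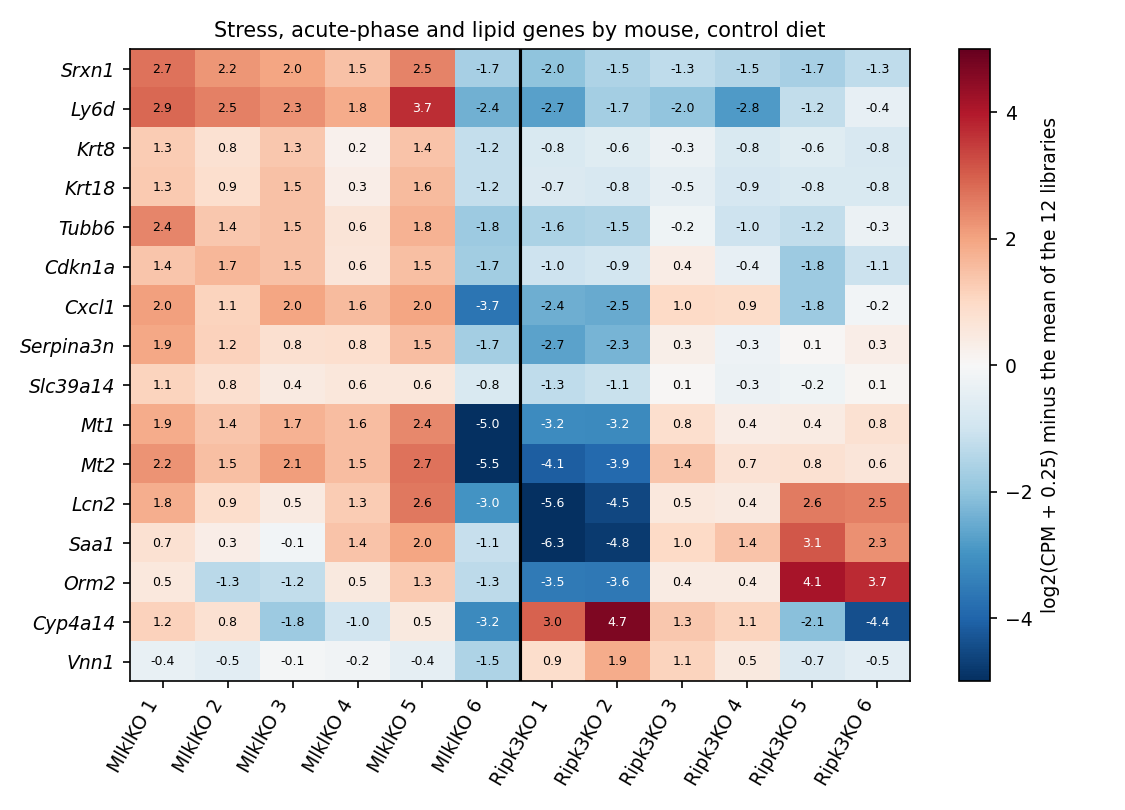
Each cell is log2(CPM + 0.25) of a gene (rows) in a liver (columns) minus that gene's mean over the 12 livers, on a colour scale from -5 to 5. MlklKO 6 is blue in the upper rows like the Ripk3KO livers, and Ripk3KO 1 and 2 are blue for Mt1, Mt2, Lcn2, Saa1 and Orm2 and red for Cyp4a14.

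Acute-phase genes, which hepatocytes switch on under interleukin-6, were high in most livers of both knockouts and low in a few. Saa1, a serum amyloid A protein, ran from 473 to 4053 CPM (median 1534) in MlklKO, from 13.2 to 9103 CPM (median 2443) in Ripk3KO and from 12.3 to 43.7 CPM (median 21.2) in WT. Ripk3KO 1 and 2 had 13.2 and 37.9 CPM, within the WT range, and the library labelled Ripk3KO 5 had 9103 CPM, the highest. The log2 difference between the knockouts was -0.76 with adjusted p = 0.508, and without Ripk3KO 1 and 2 it was -1.34 with adjusted p = 0.0479. Lcn2, an iron-sequestering acute-phase protein, ran from 16.3 to 818 CPM (median 280.0) and from 2.53 to 806 CPM (median 184) in MlklKO and Ripk3KO (adjusted p = 0.972), with the lowest values again in Ripk3KO 1 and 2 and, within MlklKO, in replicate 6. With all 12 libraries neither gene was called.

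Of the 32 acute-phase and STAT3 genes tested, 3 were called higher in MlklKO and 2 lower (15.6%, all genes 7.03%), with a median difference of 0.08. Serpina3n, a protease inhibitor, was higher (1.44, adjusted p = 0.0174), as were the feedback inhibitor Socs3 (1.51, adjusted p = 0.00789) and the interleukin-1 receptor Il1r1 (0.87, adjusted p = 0.0397). Saa3 (-1.95, adjusted p = 0.00764) and the acid glycoprotein Orm2 (-2.37, adjusted p = 0.0225) were lower. Without Ripk3KO 1 and 2, 0 were called higher and 5 lower, where 0.834% and 0.505% of all genes were, and the median was -0.21. Orm2 lost its call without the library labelled Ripk3KO 5 (adjusted p = 0.127). Against the WT controls, which both comparisons share, 29 of these genes were called higher in MlklKO, where 13% of all genes were, and 29 in Ripk3KO, where 2.25% were.

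Metallothioneins, which bind zinc and copper and rise with zinc, glucocorticoids and inflammation, were likewise lowest in MlklKO 6 and in Ripk3KO 1 and 2 within their groups. Mt1 was at 2003 to 4132 CPM in MlklKO 1 to 5 and 24.2 CPM in MlklKO 6. In Ripk3KO it was at 86.5 and 84 CPM in replicates 1 and 2 and at 999.7 to 1365 CPM in the others, against 5.84 to 18.7 CPM (median 11.2) in WT. Mt1 was not called (log2 difference 1.51, SE 0.582, adjusted p = 0.104) but was without MlklKO 6 (log2 difference 1.77, adjusted p = 0.012). Mt2 had the same order of livers, from 0.447 to 208 CPM (median 113) and from 1.55 to 81.8 CPM (median 50) (adjusted p = 0.117). The zinc importers Slc39a10 (1.79, adjusted p = 3.33e-04) and Slc39a14 (0.92, adjusted p = 0.00581) were the 2 called genes of 15 tested in this list, both higher in MlklKO (13.3%, all genes 7.03%). Slc39a10 kept its call without Ripk3KO 1 and 2, and Slc39a14 did not (0.64, adjusted p = 0.109). Slc39a10 ran from 5.37 to 46.8 CPM (median 23.9) against 3.35 to 15.2 CPM (median 6.22), with overlap through MlklKO 6.

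Of 22 TNF and NF-kappaB targets tested, 3 were called higher in MlklKO and 1 lower, 18.2% in all against 7.03% of all genes, with a median of 0.26. Tnfaip3, the deubiquitinase A20 that limits NF-kappaB signalling, ran from 3.13 to 44.6 CPM (median 10.9) and from 2.24 to 6.98 CPM (median 3.25), a log2 difference of 2.08 (SE 0.411, adjusted p = 0.00144). The neutrophil chemokine Cxcl1 was at 188 to 354 CPM in MlklKO 1 to 5, 6.56 CPM in MlklKO 6, and 14.9 to 169 CPM (median 50.4) in Ripk3KO (log2 difference 1.68, SE 0.544, adjusted p = 0.0498). Nfkb1 was higher with 0.65 (adjusted p = 0.0357), and Saa3 was the lower member. Without Ripk3KO 1 and 2 the counts were 1 and 1, where 1.34% of all genes were called, and the median was 0.08. Without the library labelled Ripk3KO 5, Cxcl1 (adjusted p = 0.102) and Nfkb1 (0.0662) lost their calls.

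The necroptosis and cell death list had 2 genes higher and 1 lower of 24 tested (12.5%, all genes 7.03%), with a median of -0.20. The lower gene was Mlkl. The higher genes were the TNF receptor Tnfrsf1a, from 81.4 to 423 CPM (median 256) against 80.3 to 227 CPM (median 162) (0.77, adjusted p = 0.0299), and the anti-apoptotic Bcl2l1 (0.79, adjusted p = 0.0225). Both overlapped between groups, and neither was called without Ripk3KO 1 and 2, with 0.49 and 0.70. Of 28 interferon-stimulated genes 1 was called, the immunoproteasome subunit Psmb8, lower with -0.54 (adjusted p = 0.0274), and it was not called without the library labelled Ripk3KO 5 (adjusted p = 0.103). None of 19 antigen presentation genes was called by edgeR, where 1 had an unadjusted p under 0.05.

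The circadian clock sets the daily rhythm of many liver genes. Arntl (BMAL1) drives the E-box genes Dbp, the Per and Cry genes and their outputs, so Arntl and Dbp peak at opposite times. The log2 ratio of Arntl to Dbp ran from -4.94 to -3.66 in MlklKO and from -7.34 to -5.65 in Ripk3KO, and the groups did not overlap. Both groups lay on the low side of the widest gap in this ratio over all 44 libraries (between -3.66 and -2.66), but their medians were 2.04 apart. In WT on chow the ratio was -7.81 and -5.78 in 2 livers and 0.104 to 2.69 in the other 4.

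Both genes of the ratio were themselves not called. Dbp ran from 30.8 to 132 CPM (median 66.1) in MlklKO and from 119.9 to 235 CPM (median 151) in Ripk3KO (log2 difference -1.25, SE 0.502, adjusted p = 0.123), and Arntl from 1.29 to 4.77 CPM (median 3.25) and from 0.722 to 2.72 CPM (median 1.85), a log2 difference of 0.87 (SE 0.527, adjusted p = 0.347). For Dbp only MlklKO 6, at 132 CPM, reached into the Ripk3KO range. Of 20 clock genes and outputs tested, 0 were called higher and 4 lower in MlklKO, 20% of them against 7.03% of all genes (3.2% lower), with a median of -0.51.

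Usp2, a deubiquitinase whose liver transcript is a strong clock output, ran from 5.6 to 54.6 CPM (median 15.1) in MlklKO and from 73.1 to 163 CPM (median 88.8) in Ripk3KO (log2 difference -2.19, SE 0.579, adjusted p = 0.0153). No MlklKO liver reached the Ripk3KO range, and WT livers split into 125 and 131 CPM in replicates 4 and 2 and 4.43 to 9.29 CPM in the rest. Cry1, a repressor of the clock, ran from 4.34 to 7.88 CPM (median 6.01) and from 7.54 to 19.2 CPM (median 13.5), a log2 difference of -1.18 (SE 0.288, adjusted p = 0.00853), overlapping only through Ripk3KO 2 and MlklKO 4. Rora, a nuclear receptor that drives Arntl, was lower too, from 43.1 to 87.7 CPM (median 66.3) and from 68.7 to 125 CPM (median 97.9) (-0.53, adjusted p = 0.0246). Per2, a repressor like Cry1, had -0.73 and adjusted p = 0.125. Of the called genes of this list only Cry1 kept its call without Ripk3KO 1 and 2.

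**Figure D4:**
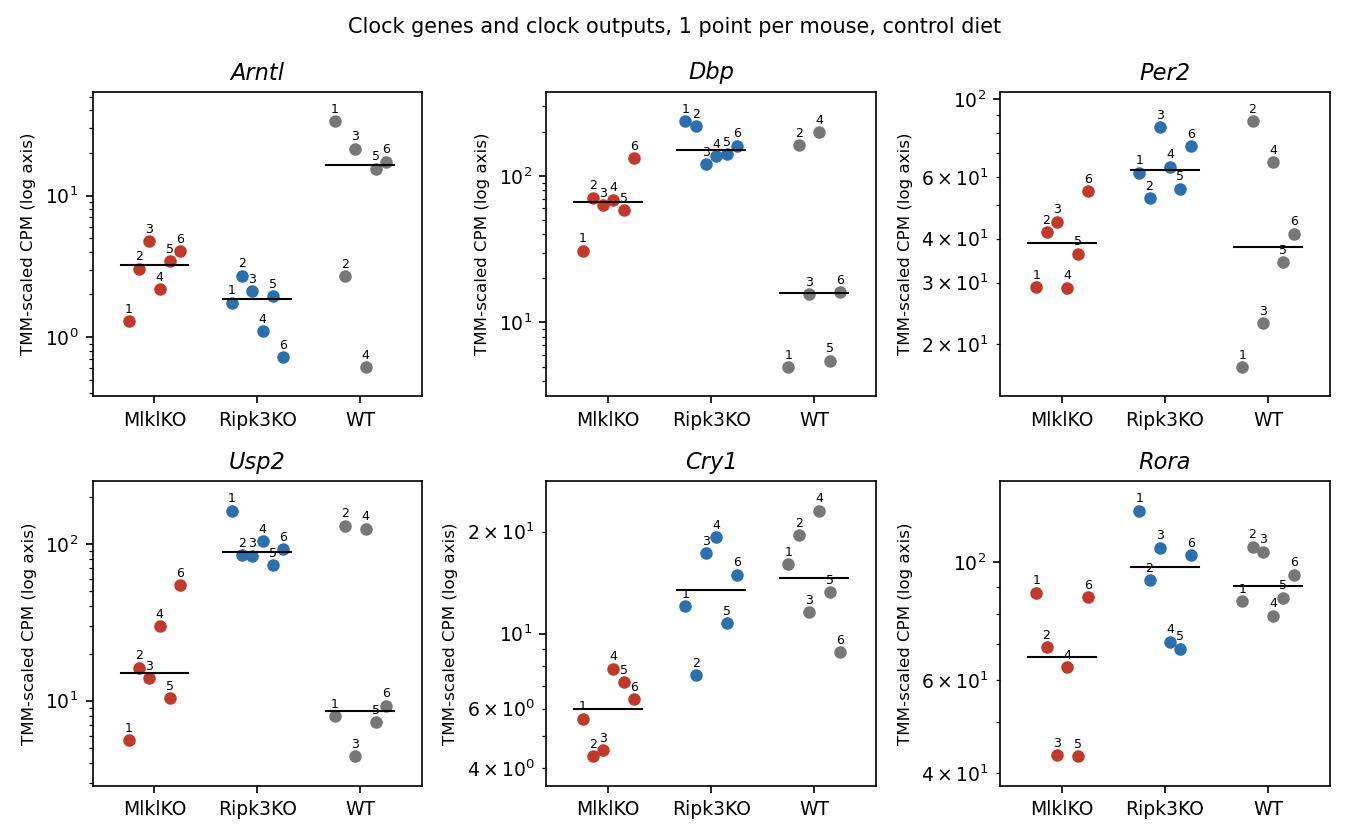
Arntl, Dbp, Per2, Usp2, Cry1 and Rora in TMM-scaled CPM on log axes, 1 point per control-diet mouse labelled with its replicate number, with group medians as lines. Usp2 does not overlap between MlklKO and Ripk3KO, and WT 2 and 4 lie at or near the Ripk3KO livers for Dbp and Usp2.

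The promoters of Cry1 and Usp2 are shown because the E-box (CACGTG) and D-box (TTATGNAA) are the motifs that BMAL1 and DBP are known to bind. Capitals mark a match to either on any strand.

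Cry1 promoter, chr10:85185055-85185304, minus strand: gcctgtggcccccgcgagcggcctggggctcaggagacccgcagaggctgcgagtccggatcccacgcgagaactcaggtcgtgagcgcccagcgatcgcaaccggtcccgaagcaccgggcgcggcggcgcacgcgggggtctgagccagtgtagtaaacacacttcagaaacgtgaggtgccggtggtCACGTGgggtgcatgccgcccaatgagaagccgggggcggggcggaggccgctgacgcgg
Usp2 promoter, chr9:44084670-44084919, plus strand: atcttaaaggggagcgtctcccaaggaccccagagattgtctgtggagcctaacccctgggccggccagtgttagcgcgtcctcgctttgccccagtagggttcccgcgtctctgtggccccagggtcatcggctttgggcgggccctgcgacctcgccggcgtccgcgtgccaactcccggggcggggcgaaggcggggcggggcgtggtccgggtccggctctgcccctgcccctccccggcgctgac

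Both are RefSeq sequences in build GRCm38.p6, 250 bases up to the start. Cry1 had 1 E-box, beginning 60 bases before the start, and no D-box. Neither pattern occurs in the Usp2 window, nor in those of Dbp and Rora, which were also searched. Of 32851 starts, 6.02% held the E-box and 3.07% the D-box in windows of this length, and the absence of these letters says nothing of binding elsewhere.

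With the ratio of Arntl to Dbp as a covariate in the fit of all 44 libraries, 774 genes were called, 666 of the 1045 among them in the same direction. In a fit of these 12 libraries alone with the covariate, 1 gene was called, Gm3375. Since the ratio does not overlap between the groups, knockout and clock ratio cannot be told apart within these livers.

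Genes of lipid synthesis moved in both directions. Srebf1, the transcription factor SREBP-1 that drives fatty acid synthesis, ran from 63.9 to 186 CPM (median 90.7) in MlklKO, from 171 to 314 CPM (median 286) in Ripk3KO and from 297 to 984 CPM (median 482) in WT (log2 difference -1.34, SE 0.262, adjusted p = 0.00133). MlklKO was lowest in median and overlapped Ripk3KO little. The acyltransferase Agpat2 (-0.67, adjusted p = 0.00557) and the lipogenic cofactor Mid1ip1 (-0.89, adjusted p = 0.0302) were also lower, whereas ATP citrate lyase, Acly, was higher (1.14, adjusted p = 0.044). These were the 4 called of 24 lipogenesis genes tested (16.7%, all genes 7.03%), and Srebf1 alone kept its call without Ripk3KO 1 and 2. Acly (adjusted p = 0.0679) and Mid1ip1 (0.0515) also lost theirs without the library labelled Ripk3KO 5.

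In the cholesterol list, Hmgcs1 (0.93, adjusted p = 0.0158) and Sqle (0.80, adjusted p = 0.0441), enzymes of synthesis, were higher, and Abcg5 (-1.32, adjusted p = 0.00182) and Abcg8 (-1.17, adjusted p = 0.0101), which together export sterols into bile, were lower. Abcg5 ran from 23.9 to 70.6 CPM (median 39.3) against 67.6 to 177 CPM (median 75.4). Of 26 genes tested these 4 were called (15.4%, all genes 7.03%). None of them was called without Ripk3KO 1 and 2, where Hmgcs1 had 1.03, Sqle 0.48, Abcg5 -0.79 and Abcg8 -0.77. The median of the list was 0.26 with all livers and 0.25 without these.

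Fatty acid oxidation and PPAR-alpha targets showed 4 genes lower and 0 higher of 29 (13.8%, all genes 7.03%), with a median of -0.38. Cyp4a14, an omega-hydroxylase and a sensitive PPAR-alpha target, ran from 2.54 to 56.9 CPM (median 24.2) in MlklKO and from 0.963 to 649.8 CPM (median 59.9) in Ripk3KO (log2 difference -2.64, SE 0.74, adjusted p = 0.0225). Ripk3KO 2 and 1, at 649.8 and 199 CPM, exceeded all MlklKO livers by a wide margin, Ripk3KO 6 was the lowest liver, and without Ripk3KO 1 and 2 the difference was -0.29. The pantetheinase Vnn1 (-1.25, adjusted p = 0.00244), the carnitine carrier Slc25a20 (-0.52, adjusted p = 0.0383) and the thiolase Acaa1b (-0.85, adjusted p = 0.0474) made up the rest. None of the 4 was called without Ripk3KO 1 and 2, when the list's median was -0.05.

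Cytochrome P450 genes and their receptors had 6 lower of 28 and none higher (21.4%, all genes 7.03%). None was called without Ripk3KO 1 and 2, but the median of the list was -0.23 there against -0.25 with all livers. The members were Cyp2u1, Cyp2c38, Cyp2a5, Cyp3a25 and the xenobiotic receptors Nr1i3 (CAR) and Nr1i2 (PXR), with differences from -1.08 to -0.73. Among phase II conjugation genes, 2 were higher and 6 lower of 29 (27.6%). The higher ones were Ugt2b37 and the estrogen sulfotransferase Sult1e1, at 29.5 CPM in MlklKO 6, 1.29 to 2.48 CPM in MlklKO 1 to 5 and 0.209 to 1.26 CPM (median 0.454) in Ripk3KO (log2 difference 3.48, SE 0.685, adjusted p = 0.0014). The groups were separated by a narrow margin, and without MlklKO 6 the difference was 1.73 with adjusted p = 0.0207. Ugt2b36 was the lower member with the smallest p, from 331 to 544 CPM (median 403) against 529.6 to 883 CPM (median 674) (-0.70, adjusted p = 8.02e-04). Members of the Ugt2b family are close copies, so reads could be shared between them. The calls of Ugt2b37, Sult1e1 and Ugt2b36 held without Ripk3KO 1 and 2, and the other 5 of the list did not.

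Secreted factors of the liver were called in both directions, 3 higher and 3 lower of 25 (24%, all genes 7.03%). Igfbp1, which binds IGF-1 and rises on fasting, ran from 38 to 429 CPM (median 124) in MlklKO and from 7.26 to 80 CPM (median 22.2) in Ripk3KO (log2 difference 2.42, SE 0.693, adjusted p = 0.0252), and Apoa4 was higher with 1.20 (adjusted p = 0.00605). Inhbc, which encodes the activin C subunit, was lower without overlap, from 30 to 56.7 CPM (median 36.6) against 58.3 to 89.3 CPM (median 76.5), a log2 difference of -0.88 (SE 0.154, adjusted p = 4.00e-04). Inhbe (-0.75, adjusted p = 0.0287) was lower as well. Inhbc was still called without Ripk3KO 1 and 2. Igfbp1 lost its call both there (adjusted p = 0.107) and without the library labelled Ripk3KO 5 (0.0548), and Inhbe without MlklKO 6 (0.0515).

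Of 18 genes of the growth hormone and IGF axis, Igfbp1, Cdkn1a and the STAT5 feedback inhibitor Socs2 (2.04, adjusted p = 0.0115) were higher and Igfals (-0.77, adjusted p = 0.0222) lower, 22.2% of the list against 7.03% of all genes. The insulin receptor substrate Irs2 (1.12, adjusted p = 0.0201) was the one call of 27 glucose genes. Without Ripk3KO 1 and 2, Cdkn1a alone of these 5 genes kept its call, and adjusted p was 0.113 for Socs2, 0.131 for Igfals and 0.0738 for Irs2. Igfals also lost its call without the library labelled Ripk3KO 5 (0.0534). Of 24 p53 targets 5 were higher and 0 lower, 20.8% against 7.03% of all genes (3.83% higher), with a median of 0.13. The cell cycle inhibitor Cdkn1a (p21) ran from 2.54 to 28.9 CPM (median 24.6) and from 2.37 to 11.6 CPM (median 4.44), a log2 difference of 1.81 (SE 0.382, adjusted p = 0.00257), with MlklKO 6 at 2.54 CPM and MlklKO 1 to 5 at 13.7 to 28.9 CPM. Gadd45g, Btg2, Aen and Zmat3 were between 0.59 and 1.89, and without Ripk3KO 1 and 2 the counts were 1 higher and 1 lower, where 1.34% of all genes were called, and the median was 0.20.

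Iron genes gave 1 higher and 3 lower of 25 (16%, all genes 7.03%), the higher one being Slc39a14. The lower ones included the iron exporter Slc40a1 (-0.76, adjusted p = 0.0176) and 2 targets of BMP and SMAD signalling, Smad7 and Id1 (-1.19, adjusted p = 0.0378). Smad7, an inhibitor of TGF-beta signalling, ran from 7.44 to 10.9 CPM (median 9.21) in MlklKO, from 12.8 to 24.3 CPM (median 18) in Ripk3KO and from 21 to 26.6 CPM (median 23.5) in WT (log2 difference -0.98, SE 0.175, adjusted p = 4.89e-04). The medians rose in that order, with no overlap between the knockouts. Smad7 was the one iron gene still called without Ripk3KO 1 and 2, where Slc40a1 had -0.71 (adjusted p = 0.112) and Id1 -1.12 (0.181), and Id1 was not called without MlklKO 6 either (0.0652). Of 25 amino acid genes the serine enzyme Psph was higher (1.17, adjusted p = 0.00154) and Prodh, Hpd and Asl lower (-0.80, -0.52 and -0.72), 16% of the list, of which Psph alone was called without Ripk3KO 1 and 2.

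Further lists had few or no calls by edgeR. Of 22 immediate early genes Junb and Btg2 were higher and Ier2 lower (13.6%, all genes 7.03%), and of 24 proliferation genes Tk1 alone was called, lower with -1.27 (adjusted p = 0.00154). Pericentral and periportal lists each had 1 higher and 1 lower, of 21 and 20. Sex-biased genes had 1 higher, Ddx3y, and 3 lower of 31 (12.9%), among them the urinary protein Mup1 (-1.17, adjusted p = 0.0144). Of these 31, 6 were above 0 in log2 difference. Their median was -0.56, against -0.01 over all genes tested, and -0.41 without Ripk3KO 1 and 2. Lipid droplet proteins had Abhd5 (0.57, adjusted p = 0.0451) of 18, bile acid genes Amacr (-0.60, adjusted p = 0.0171) of 25, and glucocorticoid-responsive genes Cdkn1a of 18. Of the calls in these lists, those of Mup1 and Cdkn1a held, and no others, without Ripk3KO 1 and 2. Junb, Ddx3y, the p53 target Gadd45g and Igfals, the lower periportal gene, lost theirs without the library labelled Ripk3KO 5, and Abhd5 its call without MlklKO 6. No gene was called of 27 choline and one-carbon genes, 24 unfolded protein genes, 20 heat shock chaperones, 14 mitochondrially encoded genes or 26 ribosomal protein genes, where 7, 5, 2, 0 and 0 had an unadjusted p under 0.05.

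Markers of the other cells that a liver sample can hold were summed in each liver, and their calls are given beside the 7.03% of all genes called. The 14 Kupffer cell markers summed to 196 to 471 CPM in the MlklKO livers and 204 to 728 CPM in the Ripk3KO livers, with Slc40a1 the only call among 13 tested (7.69%) and 1 of the 13 above 0 in log2 difference. Cholangiocyte markers summed to 96.9 to 164 CPM in the MlklKO livers and 59.5 to 118 CPM in the Ripk3KO livers, with Epcam called higher (2.24, adjusted p = 0.00625) of 11 (9.09%) and all 11 above 0 in log2 difference (median 0.21). Stellate cell and fibroblast markers summed to 318 to 508 CPM in the MlklKO livers and 278 to 460.0 CPM in the Ripk3KO livers, sinusoidal endothelial markers to 321 to 494 CPM in the MlklKO livers and 315 to 464 CPM in the Ripk3KO livers, and recruited macrophage markers to 134 to 178 CPM in the MlklKO livers and 84 to 201 CPM in the Ripk3KO livers, with no call in any of these lists. Neutrophil markers summed to 5.07 to 19.5 CPM in the MlklKO livers and 2.51 to 16.5 CPM in the Ripk3KO livers, T and NK cell markers to 3.66 to 8.46 CPM in the MlklKO livers and 3.14 to 6.22 CPM in the Ripk3KO livers, and B and plasma cell markers to 34.8 to 123 CPM in the MlklKO livers and 27.6 to 98.7 CPM in the Ripk3KO livers, also without a call. The ranges overlapped in every one of these cell types, and Slc40a1 and Epcam were not called without Ripk3KO 1 and 2. In bulk tissue, fewer cells of a type and less RNA per cell cannot be told apart.

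Markers of tissues that could be carried along gave these sums. Adipocyte markers reached 34.2 to 116 CPM in the MlklKO livers and 23.3 to 62.4 CPM in the Ripk3KO livers. Lep was at 0 in all 12 livers. Of 5 adipocyte markers tested, Fabp4 alone was called, higher in MlklKO (1.63, adjusted p = 0.00105), 20% against 7.03% of all genes. Of the same 5, 2 were above 0 in log2 difference, and the median was -0.07. Erythroid markers were at 183 to 267 CPM in the MlklKO livers and 201 to 388 CPM in the Ripk3KO livers. Pancreatic acinar markers summed to 17.6 to 46.1 CPM in the MlklKO livers and 15.8 to 38.3 CPM in the Ripk3KO livers, nearly all of it Cela1 (medians 20.7 and 22 CPM), the one of them tested, which was not called (adjusted p = 0.94). Of these markers Cela3b, Cpb1, Ctrb1 and Pnlip were at 0 throughout, and of the skeletal muscle markers Ckm, Myh1, Myh2, Myl1 and Tnnc2. Mylpf, the one muscle marker tested, was lower in MlklKO (-2.26, adjusted p = 0.0112) at a summed muscle level of 0.126 to 0.552 CPM in the MlklKO livers and 0.489 to 1.68 CPM in the Ripk3KO livers. Mylpf was not called without Ripk3KO 1 and 2. The part of these tissues in the differences above was not tested.

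Genes beside Ripk3 and Mlkl were counted apart from the rest. Among the 100 tested genes nearest Ripk3 on chromosome 14, taking 50 on each side in gene order, 14 were called (14%, all genes 7.03%), 9 of them higher in MlklKO. Of these 14, 5 kept their calls without Ripk3KO 1 and 2, and 5 in the fit of these 12 libraries alone. Among the 100 nearest Mlkl on chromosome 8, 11 were called (11%), 8 of them higher. Of these 11, 1 kept its call without Ripk3KO 1 and 2 and 0 in the fit of the 12 libraries. With 20 genes on each side the shares were 7.5% for Ripk3 and 2.5% for Mlkl. Neighbouring genes are not independent of each other, and these shares were not tested against that of all genes.

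A few genes near Ripk3 had large differences in the same direction on all 3 diets. Cebpe, a transcription factor of granulocytes 39 tested genes away, was at 3.23 to 9.4 CPM (median 5.6) in MlklKO and at 10.1 to 18.1 CPM (median 13.6) in WT, but at 0 to 0.419 CPM in Ripk3KO apart from the library labelled Ripk3KO 5, which had 4.47 CPM (log2 difference 2.51, SE 0.48, adjusted p = 0.00105). Ppp1r3e, a glycogen-targeting phosphatase subunit, was at 0.583 to 1.63 CPM in the other Ripk3KO livers, 4.19 CPM in the library labelled Ripk3KO 5 and 3.17 to 7.15 CPM (median 3.64) in MlklKO (log2 difference 1.43, SE 0.347, adjusted p = 0.00824). The predicted gene Gm43305, 54 tested genes away, was at 70.1 to 482 CPM (median 200.2) in MlklKO, at 31.9 CPM in the library labelled Ripk3KO 5 and at 0.628 to 3.1 CPM in the other Ripk3KO livers (log2 difference 5.01, SE 0.744, adjusted p = 5.06e-05). In these 3 genes, as in Ripk3 itself, the library labelled Ripk3KO 5 stood apart from its group towards MlklKO.

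Psmb5, a catalytic subunit of the proteasome, ran from 81.2 to 112 CPM (median 86) in MlklKO, 31.8 to 55.9 CPM (median 51.1) in Ripk3KO and 79.2 to 166 CPM (median 100.2) in WT (log2 difference 0.98, SE 0.153, adjusted p = 8.76e-05), and there the library labelled Ripk3KO 5 lay with its group. Haus4, a spindle protein 47 tested genes from Ripk3, was lower in MlklKO, from 5.78 to 10.1 CPM (median 6.89) against 15.2 to 28.6 CPM (median 19.4) and 11.4 to 24 CPM (median 14.2) in WT (log2 difference -1.48, SE 0.173, adjusted p = 4.95e-07). Unlike Psmb5 it set MlklKO apart from both other groups, and it was the call of a named gene without overlap that had the smallest p.

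The smallest p of all belonged to Gm3375, a predicted gene on chromosome 7. It ran from 0.146 to 1.3 CPM (median 0.699) in MlklKO, from 16.1 to 55.8 CPM (median 43) in Ripk3KO and from 0.456 to 2.2 CPM (median 1.04) in WT, 57.3-fold higher in Ripk3KO than in MlklKO (log2 difference -5.84, SE 0.353, adjusted p = 7.90e-16). The library labelled Ripk3KO 5 was the lowest of its group, at 16.1 CPM, and still far above every MlklKO and WT liver.

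The labels' other diets allow the same comparison on CD-LFD (4 MlklKO, 3 Ripk3KO) and CD-HFD (3 MlklKO, 4 Ripk3KO). Few genes differed there, 9 on CD-LFD (0.0606%) and 5 on CD-HFD (0.0336%). The 5 on CD-HFD were Gm3375, Cebpe, Ripk3, Psmb5 and Gm43305, and those on CD-LFD also included Mlkl, Ppp1r3e and Nuggc, the last again near Ripk3. Gm3375 had a log2 difference of -6.45 on CD-LFD and -5.71 on CD-HFD, Cebpe 4.83 and 5.69, and Psmb5 1.15 and 1.19.

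**Figure D5:**
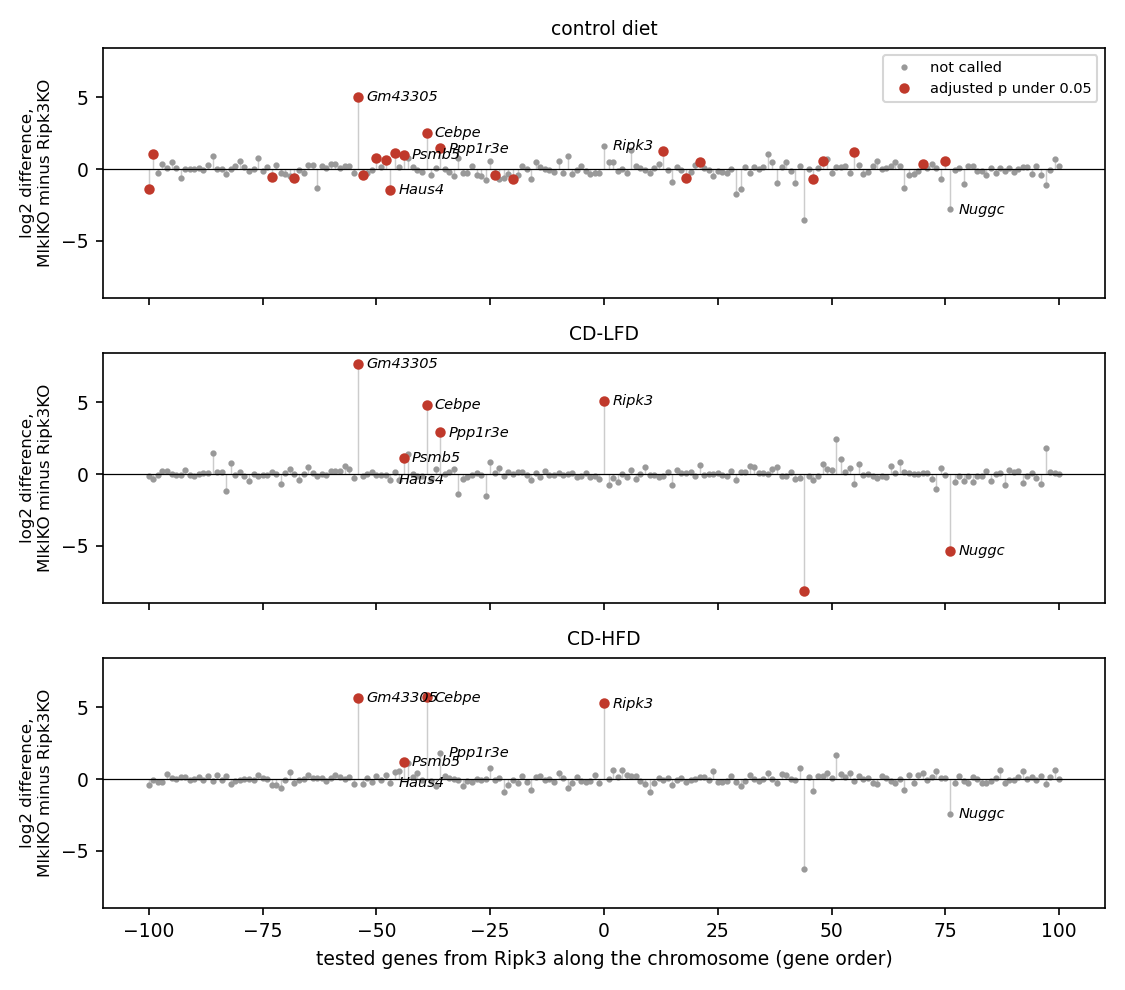
Fitted log2 difference (MlklKO minus Ripk3KO) of the 100 tested genes on each side of Ripk3, by their order along the chromosome, on each of 3 diets, with called genes in red. Gm43305, Psmb5 and Cebpe are called on all 3 diets, and Haus4 on chow alone. The 2 lowest called values on CD-LFD rest on MlklKO groups at or near 0 counts and are no measure of size.

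The chow calls were set beside the same genes on the other diets. Of the 1045 chow calls, 595 (56.9%) had the same sign on CD-LFD and 836 (80.0%) on CD-HFD, against 53.5% and 63.9% of all genes tested. Their median absolute log2 difference was 0.771 on chow, 0.193 on CD-LFD and 0.219 on CD-HFD. These genes were chosen for their difference on chow, which raises the first value, and over all 14862 genes the medians were 0.266, 0.189 and 0.191. The libraries on each diet are separate ones.

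A test of the change itself called 38 genes between chow and CD-LFD (0.256%) and 5 between chow and CD-HFD (0.0336%). Srxn1 was among both. On CD-LFD it was at 56.2 to 77.1 CPM in MlklKO and 56.5 to 106 CPM in Ripk3KO, so the chow difference of 3.51 became -0.41, a change of -3.93 (SE 0.502, adjusted p = 1.48e-05). On CD-HFD the change was -3.53 (SE 0.52, adjusted p = 4.39e-04). The other 4 genes called for CD-HFD were Ly6d (-4.94), Mrap (-2.67), Sult1e1 (-5.36) and Smad7 (1.55), with adjusted p from 0.00337 to 0.00533.

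For CD-LFD the called genes included, besides Srxn1, Ly6d (-5.58), Krt8 (-2.17), the ESCRT-III gene Chmp7 (-1.28), Ugt2b37 (-3.80) and Ces1b (2.59). Chmp7 rose on chow (0.75, adjusted p = 6.78e-04) and had -0.54 on CD-LFD. Counts of such calls rested on single livers, with 215 for CD-LFD and 38 for CD-HFD without MlklKO 6, and 0 of either by edgeR in fits of the 4 groups alone (1470 and 890 genes at an unadjusted p under 0.05).

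Against WT on chow, 4029 genes were called in MlklKO (27.1%) and 665 in Ripk3KO (4.47%). Both comparisons use the same 6 WT libraries, of which 4 differ from all knockout livers in the clock ratio. Set side by side, Srxn1 had 3.23 in MlklKO and -0.28 in Ripk3KO, Hhex -2.17 and -0.16, Adora1 -1.64 and -0.14, Haus4 -1.07 and 0.41, Psmb5 -0.27 and -1.25, Gm3375 -0.83 and 5.02, and Mt1 7.69 and 6.18. For Srxn1, Hhex, Adora1 and Haus4 the MlklKO value was called and the Ripk3KO value was not, for Psmb5 and Gm3375 the reverse held, and Mt1 was called in both.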

How the data were processed

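Total RNA from liver was made into stranded libraries with the NEBNext Ultra II Directional kit, per the labels' protocols. The authors deposited 1 table of raw counts per gene for 44 libraries, with 35249 gene rows of which 34373 carry a symbol in the reference. FastQC, STAR, HTSeq, edgeR, limma and the mouse build GRCm39 (mm39) are named in the submitters' processing notes, with no versions. The reference used here is GRCm38, so gene positions are given only as order along a chromosome, and promoter coordinates are those of RefSeq GRCm38.p6.

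Counts were fitted with the edgeR 4.0.16 quasi-likelihood test (R 4.3.3) over all 44 libraries, with 1 mean for each of 9 groups of genotype and diet, TMM scaling and a minimum count of 10 in edgeR's filter. This kept 14862 genes and 99.8% of counts. P-values were adjusted by the Benjamini-Hochberg method over all genes tested. Alternatives were other scalings, no filter, a robust fit, DESeq2 1.42.0, only the compared groups, a clock covariate (the log2 ratio of Arntl to Dbp, each with a prior count of 2), a replicate block, and leaving out libraries. Fits of these 12 libraries with the clock covariate and fits without Ripk3KO 1 and 2 together were added after seeing the data. In simulated counts made from this comparison over 14862 genes, 55% of 100 genes changed 2-fold and 84% of 100 changed 4-fold were recovered, with 8 false calls of 147. Each gene was drawn independently there, with no liver set apart from its group. The simulation therefore gives no rate of false calls for the real livers.

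The comparison, gene lists and members were chosen with earlier results of these data known. The text names Ripk3 and Mlkl, the 12 largest called rises and 12 largest called falls without overlap (mean log2 CPM of at least 1, no predicted genes), up to 4 called genes of each list, the 3 best called neighbours of each target and the 4 best called genes of each interaction. Other genes were added after their values were seen, and a few genes that the rule names are not reported here. Replicate numbers do not pair the libraries: the correlation of deviations between libraries of the same number ran from -0.241 to 0.0949. The 3-count floors cover counting error only.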

Additional observations from a re-analysis of the deposited data

Results flagged for a closer look

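Within single groups of 6 livers, 19 of 220 gene and library measures tested held 1 liver far from the other 5 by Dixon's test, which chance gives in about 1 of 20. Of these, 12 were in MlklKO 6. It was the low liver for Serpina3n at 479 CPM, Slc39a14 at 351, Cdkn1a at 2.54, Cxcl1 at 6.56, Vnn1 at 8.05, Hsp90aa1 at 412, Srxn1 at 29.5, Aen at 14.6, Junb at 56.8 and Ly6d at 0.298 CPM. It was the high liver for Sult1e1 at 29.5 CPM and Tk1 at 31.2 CPM. In Ripk3KO 2, Gclm stood at 286 CPM and Btg2 at 6.7 CPM, and in Ripk3KO 1 Cldn2 at 28.2 CPM. Osgin1 stood apart in MlklKO 1 at 338 CPM and in Ripk3KO 3 at 406 CPM. Cebpe at 4.47 CPM was apart in the library labelled Ripk3KO 5. The TMM factor of MlklKO 1, at 0.816, was the lowest of its group.

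The difference between the knockouts changed between chow and CD-LFD by the edgeR interaction term with Benjamini-Hochberg adjustment for Srxn1 (-3.93 on the log2 scale, adjusted p = 1.48e-05), Ly6d (-5.58, 6.56e-04), Chmp7 (-1.28, 0.00537), Krt8 (-2.17, 0.00604) and Ugt2b37 (-3.80, 0.0087). The same held for Sult1e1 (-4.44, 0.0106), Mrap (-2.19, 0.0112), Ces1b (2.59, 0.0364), Inhbc (1.12, 0.0364), Alcam (-1.35, 0.0381) and Ugt2b36 (0.93, 0.0402). Without Ripk3KO 1 and 2, the changes of Ces1b (1.75, adjusted p = 0.225), Ugt2b36 (0.78, 0.167), Alcam (-1.26, 0.149), Sult1e1 (-4.27, 0.0557) and Inhbc (1.17, 0.0557) were no longer called, and those of the other 6 genes were. Without MlklKO 6 the change of Sult1e1 was -2.70.

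Between chow and CD-HFD the difference changed for Srxn1 (-3.53), Sult1e1 (-5.36), Mrap (-2.67), Ly6d (-4.94) and Smad7 (1.55). Without MlklKO 6 that of Sult1e1 was -3.62.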

How the results depend on the processing

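Calls between the knockouts on chow numbered 1045. They were 481 to 1802 when 1 library was left out, the lowest without Ripk3KO 2 and the highest without MlklKO 6. With only the compared groups there were 164 calls, with the clock covariate in those groups 1, and without Ripk3KO 1 and 2 together 199, where fewer libraries enter the fit. The other settings gave 715 to 1475. The 38 calls of the interaction with CD-LFD became 78 with library sizes alone, 114 by DESeq2, 0 with only the compared groups, 21 with the clock covariate, 15 without Ripk3KO 1 and 2, and 18 to 215 with 1 library left out, the libraries that moved it by over 1.5 times being Ripk3KO 1, 2 and 3 and MlklKO 1, 5 and 6. The 5 calls of the interaction with CD-HFD became 10 by DESeq2, 0 with only the compared groups, and 5 to 38 with 1 library left out (8 without Ripk3KO 4, 38 without MlklKO 6). With the replicate number as a block, which does not pair the libraries, chow calls were 1029 and those of the interaction with CD-LFD 17. Same-numbered libraries were not best matched to each other. With 20 genes on each side, 7.5% of genes near Ripk3 and 2.5% near Mlkl were called. For single genes, 2161 of the alternative values kept direction and call, 490 lost the call, 9 gained it and 7 changed sign. All 7 arose with the clock covariate in the compared groups: Ripk3 at -1.02, Cdkn1a at -0.21, Rora at 0.15, Hmgcs1 at -0.094, Rpl3 at -0.19, Cdh3 at -0.68 and Krt8 at -0.16 on the log2 scale. The cause was not tested. Depth limits low genes such as Ripk3, Sult1e1 and Cebpe, where a few counts set a level.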
